A study of Mus musculus with 48 samples.

Results

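The mature miRNAs mmu-miR-7a, mmu-miR-7b and mmu-miR-375 were followed in the brains of ageing wild-type mice and of mice carrying a human Alzheimer's disease transgene. They were chosen by their names on the array, all 3 names were found, and they are 3 of the 1080 miRNAs that the array measures, 1023 of them from the mouse. The study compared WT C57BL/6J mice with Tg2576 mice, which carry the transgene Tg(APPSWE)2576Kha, a human amyloid precursor protein gene with the Swedish mutation driven by the hamster prion protein promoter. All mice were male. Total RNA was taken from cortex or from whole brain at 10 or 17 months of age, which gave 8 groups (2 genotypes, 2 tissues, 2 ages) with 3 miRNA arrays each. A 1-colour mRNA array with the same label stands beside each of the 24 miRNA arrays. The labels do not say whether the miRNA array and the mRNA array of a label came from the same RNA. Nothing in the labels says that the 3 arrays of a group came from separate animals, so every p-value measures only the spread between these arrays, which may be technical.

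MicroRNAs are short RNAs that pair through their seed, bases 2 to 8, with messenger RNAs and lower their stability or translation. miR-7 is an old miRNA, shared by insects and vertebrates, that is enriched in neurosecretory cells of the hypothalamus, in the pituitary and in the endocrine pancreas. miR-375 is best known from pancreatic islet cells, where it restrains insulin secretion, and from the pituitary, where it is made by hormone-producing cells. The hormone genes set beside them are Pomc, whose product is cut into ACTH in the pituitary and into melanocortins in pituitary and hypothalamus, and Prl, which encodes prolactin and is made by lactotroph cells of the pituitary.

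The sequences of the miR-7 family are shown because the 2 guide strands differ by so little that their signals must be read together. In the RefSeq records on build GRCm38.p6, mmu-miR-7a comes from 2 genes, Mir7-1 (chr13:58392841-58392863, minus strand, inside the gene Hnrnpk, which encodes an RNA-binding protein) and Mir7-2 (chr7:78888295-78888317, plus strand). The gene Mir7b gives mmu-miR-7b (chr17:56243017-56243040, plus strand), 183 bases from its neighbour A230051N06Rik. The strands are written 5′ to 3′ with the seed in capitals, the guide strands first and then the opposite strands of the 3 hairpins.
mmu-miR-7a-5p: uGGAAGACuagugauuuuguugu
mmu-miR-7b-5p: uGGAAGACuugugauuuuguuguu
mmu-miR-7a-1-3p: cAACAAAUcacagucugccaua
mmu-miR-7a-2-3p: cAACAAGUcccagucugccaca
mmu-miR-7b-3p: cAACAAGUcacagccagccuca
Both guide strands have the same seed. Over the 23 bases they share they differ by 1 substitution, A10U (mmu-miR-7a first, counted from 1 at the 5′ end), and mmu-miR-7b has 1 base more at its 3′ end. The opposite strands of Mir7-2 and Mir7b share a seed with each other, and that of Mir7-1 has another. The hairpin of mmu-miR-375 lies at chr1:74900658-74900721 on the minus strand, between Cryba2 and Cfap65.

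A level is log2 of the mean signal of the 2 probes of a miRNA, after division by the 75th percentile of 402 probes, those well above background on each of the 24 arrays. A level of 0 is thus that percentile, a difference of 1 is a 2-fold difference, and values under -5.67 were set to that floor, taken as the dimmest signal above background on a typical array. The 75th percentile itself ran from 351 to 1604 intensity units (median 676), and 241 to 386 miRNAs (median 300.5) were detected on an array. The markers bore out the tissue labels in part. Of 4 cerebellar genes, 3 were higher in whole brain than in cortex, as were 17.6% of all mRNA probes. All 6 cortical neuron genes of the list used here were above background on every array, whole brain included, which cannot tell the tissues apart. Of these 6, 1 was lower in whole brain (median log2 difference -0.16), as were 19.9% of all mRNA probes. Of 12 hypothalamic genes, 9 were nevertheless above background on all 24 arrays, cortex included, as were Pomc and Prl. App, the mouse counterpart of the transgene, differed between Tg2576 and WT by -0.02, -0.02, 0.25 and -0.02 (log2) in cortex at 10 and 17 months and whole brain at 10 and 17 months, none of which passed limma's test (adjusted p = 0.43 or higher), and whether its probe also reads the human transgene is not given in the sources used here.

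mmu-miR-7a was measured above background on every array, with intensities of 426 to 2459. In cortex its levels at 10 months were 0.46, -0.17 and -0.61 on the 3 WT arrays and 0.16, 0.94 and -0.05 on the 3 Tg2576 arrays. At 17 months they were 0.57, 1.10 and -0.00013 in WT and -0.13, 0.77 and 0.63 in Tg2576. The 4 cortex groups overlapped, and each of them held arrays that lay about 1 log2 unit apart. In whole brain at 10 months mmu-miR-7a stood at 0.56, 0.36 and 1.04 in WT and at 0.87, 0.21 and 0.62 in Tg2576. At 17 months the whole-brain levels were 0.85, 0.23 and 0.73 in WT and 0.98, 0.90 and 0.55 in Tg2576. Whole brain was the tighter tissue, from 0.21 to 1.04 with an SD of 0.29 over 12 arrays, against -0.61 to 1.10 with an SD of 0.52 in cortex.

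mmu-miR-7b rose and fell over the same arrays, with intensities of 172 to 851, and was also above background on all 24. In cortex at 10 months its levels were -1.09, -1.57 and -1.85 in WT and -1.27, -0.53 and -1.44 in Tg2576. Cortex at 17 months gave -0.96, -0.39 and -1.31 in WT and -1.53, -0.72 and -0.87 in Tg2576. The arrays that were high for mmu-miR-7a, such as the second WT array at 17 months and the second Tg2576 array at 10 months, were the high ones here too. Whole-brain levels at 10 months were -0.90, -1.13 and -0.37 in WT and -0.65, -1.23 and -0.92 in Tg2576. Whole brain at 17 months had -0.70, -1.21 and -0.78 in WT and -0.56, -0.62 and -0.95 in Tg2576.

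Between the 2 miR-7 guide strands the difference in level was nearly constant, 1.46 ± 0.08 (SD, n = 24 arrays), and ran from 1.24 to 1.55. Their levels correlated at r = 0.99 within cortex and within whole brain, over 12 arrays each that share RNA and scaling. The 2 probes of mmu-miR-7a correlated with each other at r = 0.98 and those of mmu-miR-7b at r = 0.999, so the movement from array to array was seen by 4 probes. How far each probe also binds the other guide strand, which differs by the single base shown above, was not tested.

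Among the 227 miRNAs detected on all arrays and never at the floor, mmu-miR-7a and mmu-miR-7b moved more between arrays of the same group than nearly all others. The within-group SD was 0.43 for mmu-miR-7a, rank 2 of the 227, and 0.38 for mmu-miR-7b, rank 5, against a median of 0.13 over the 227. The ranking leaves out miRNAs that reached the floor, and some of these moved more. In WT whole brain at 10 months the SD was 3.28 for mmu-miR-200a and 1.62 for mmu-miR-375. The opposite strand mmu-miR-7a-1* was detected on all 24 arrays and was far steadier, from -3.78 to -3.14 with a within-group SD of 0.16 (rank 68). After subtraction of the tissue mean it correlated with mmu-miR-7a at only r = 0.08. mmu-miR-7a-2*, the opposite strand of the other hairpin, was detected on 20 arrays, stood at the floor on 9, and correlated with mmu-miR-7a at r = 0.53. mmu-miR-7b* was detected on 2 arrays and mmu-miR-375* on 0.

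**Figure D1:**
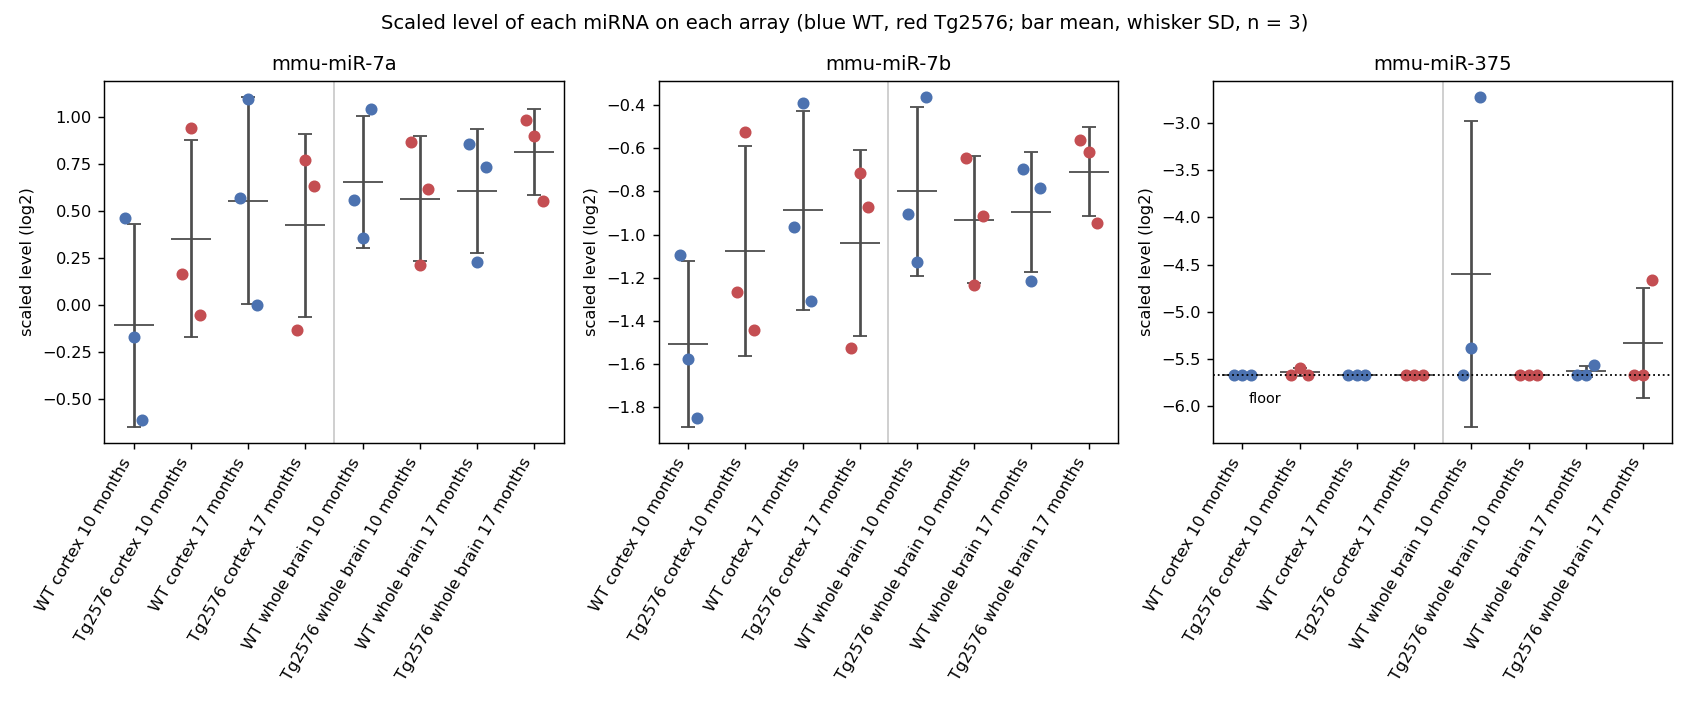
Levels of mmu-miR-7a, mmu-miR-7b and mmu-miR-375 (log2, scaled to the array's 75th percentile) in the 8 groups, with 1 point per array and the mean and SD of the 3 arrays of each group. Groups overlap for each miRNA, and 19 of the 24 mmu-miR-375 values lie at the floor of -5.67.

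mmu-miR-375 was near the detection limit. By the mean of its 2 probes it lay at the floor on 19 of 24 arrays. The 5 arrays above it were the third WT array of whole brain at 10 months at -2.73, the third Tg2576 array of whole brain at 17 months at -4.66, the second WT array of whole brain at 10 months at -5.39, the third WT array of whole brain at 17 months at -5.56 and the second Tg2576 array of cortex at 10 months at -5.59. The highest array was 3.81-fold above the next and 7.65-fold above the floor. The brighter of the 2 probes was well above background on 10 of 12 whole-brain arrays and on 2 of 12 cortex arrays, the dimmer probe on 2 arrays in all. In cortex at 17 months the brighter probe was not well above background on any of the 6 arrays.

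Taken alone and without the floor, the brighter probe of mmu-miR-375 gave -5.58, -4.72 and -2.12 in WT whole brain at 10 months and -6.80, -5.38 and -6.18 in Tg2576 (log2, same scaling). Whole brain at 17 months gave -5.09, -5.29 and -5.02 in WT and -5.72, -6.14 and -4.09 in Tg2576. At 10 months every WT array except the first lay above all 3 Tg2576 arrays, and at 17 months the Tg2576 arrays held both the lowest and the highest value. Cortex levels of this probe ran from -6.57 to -5.18 in WT and from -6.41 to -5.01 in Tg2576 at 10 months, and from -6.75 to -5.54 and from -6.94 to -5.41 at 17 months, and 10 of these 12 values were not well above background.

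Ordered by group mean, mmu-miR-7a was highest in Tg2576 whole brain at 17 months, at 0.81 ± 0.23 (SD, n = 3). It was followed by WT whole brain at 10 months (0.65 ± 0.35), WT whole brain at 17 months (0.61 ± 0.33), Tg2576 whole brain at 10 months (0.56 ± 0.33), WT cortex at 17 months (0.55 ± 0.55), Tg2576 cortex at 17 months (0.42 ± 0.49), Tg2576 cortex at 10 months (0.35 ± 0.52) and WT cortex at 10 months (-0.11 ± 0.54). mmu-miR-7b had the same top and bottom groups, at -0.71 ± 0.21 and -1.51 ± 0.38. The span from the highest to the lowest group mean was 0.92 for mmu-miR-7a, 0.80 for mmu-miR-7b and 1.07 for mmu-miR-375. For each member, 0 of the 7 steps between neighbours in that order exceeded the pooled within-group SD. For mmu-miR-375 the lowest groups all stood at the floor with an SD of 0, so the steps between them could not exceed it.

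The comparison of Tg2576 with WT asks whether the transgene changes these miRNAs as amyloid builds up. None of the 3 members passed limma's test in any of the 4 comparisons of genotype (Benjamini-Hochberg adjusted p under 0.05), and neither did any other miRNA. The background was therefore 0% of the 265, 244, 269 and 271 miRNAs tested in cortex at 10 and 17 months and whole brain at 10 and 17 months, with 20, 37, 18 and 17 of them at an unadjusted p under 0.05. With the methods' own criterion, an unadjusted test and at least a 2-fold change, 7, 0, 0 and 0 miRNAs passed, none of them a member, and 0 remained after Benjamini-Hochberg adjustment. In cortex at 10 months the largest genotype difference of the miR-7 pair was seen. mmu-miR-7a was 0.46 higher in Tg2576 there (95% confidence interval -0.44 to 1.36, adjusted p = 0.80 by limma), and mmu-miR-7b 0.43 higher (-0.31 to 1.17, adjusted p = 0.80). These intervals leave room for differences of more than 2-fold. On the mRNA arrays for cortex at 10 months, the mean of the 10 hypothalamic genes ran from -2.26 to 0.31 in WT and from -2.46 to 1.11 in Tg2576. The mean of 8 olfactory bulb genes ran from -2.61 to -1.67 in WT and from -1.03 to 0.95 in Tg2576, with 0 of the 8 called by limma (median log2 difference 2.29). Their part in the miR-7 differences was not tested.

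The other genotype differences of mmu-miR-7a were -0.13 in cortex at 17 months (-0.95 to 0.69), -0.09 in whole brain at 10 months (-0.67 to 0.50) and 0.21 in whole brain at 17 months (-0.28 to 0.69), with adjusted p of 0.87, 0.91 and 0.72 by limma. mmu-miR-7b gave -0.15, -0.13 and 0.19, with adjusted p of 0.84, 0.86 and 0.70. Within the 1 slide that held both genotypes, the mmu-miR-7a difference was 0.42 in cortex at 17 months (3 Tg2576 arrays against 1 WT array). In whole brain at 10 months it was 0.22 (1 Tg2576 array against 3 WT arrays), so each of these values rests on 1 array on 1 side. With scaling over all probes the difference was 0.36 in cortex at 17 months. These small differences thus have no settled sign. mmu-miR-375 could not be tested in cortex, where too few arrays were above background. In whole brain it differed by -1.07 at 10 months (-3.00 to 0.86, adjusted p = 0.59) and by 0.30 at 17 months (-0.39 to 0.99, adjusted p = 0.71). Without the third WT array the difference at 10 months was -0.14, so that 1 array set most of it.

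The comparison of ages and of tissues gave no call for the members either. From 10 to 17 months mmu-miR-7a differed by 0.37 in cortex (-0.25 to 0.99, adjusted p = 0.46 by limma) and by 0.10 in whole brain (-0.27 to 0.47, adjusted p = 0.81). mmu-miR-7b differed by 0.33 (adjusted p = 0.45) and 0.06 (adjusted p = 0.88). In cortex 6 of 273 miRNAs tested were higher with age (2.2%) and 2 lower (0.733%), and in whole brain 0 of 273, where 40 had an unadjusted p under 0.05. For mmu-miR-375 in whole brain the age difference was -0.35 (-1.35 to 0.65, adjusted p = 0.72).

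Whole brain exceeded cortex by 0.35 for mmu-miR-7a (confidence interval from just below 0 to 0.71, adjusted p = 0.13 by limma), by 0.29 for mmu-miR-7b (adjusted p = 0.16) and by 0.35 for mmu-miR-375 (adjusted p = 0.30). This was the comparison with the most calls, 40 of 281 miRNAs higher in whole brain (14.2%) and 33 lower (11.7%), and 0 of the 3 members were among them. On the 2 slides that held both tissues the mmu-miR-7a difference was 0.39 (4 arrays against 4) and 0.84 (1 against 1). None of the tests of whether genotype differences changed with age, or age differences with tissue, was passed by a member. Over all features 0% of miRNAs and mRNA probes passed for genotype by age in either tissue, and for age by tissue 0.356% of 281 miRNAs were lower and 0% higher, while 0.116% of mRNA probes were higher and 0.272% lower. The largest of these values was 1.37 for mmu-miR-375 in whole brain (SE 0.90, adjusted p = 0.97 by limma).

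**Figure D2:**
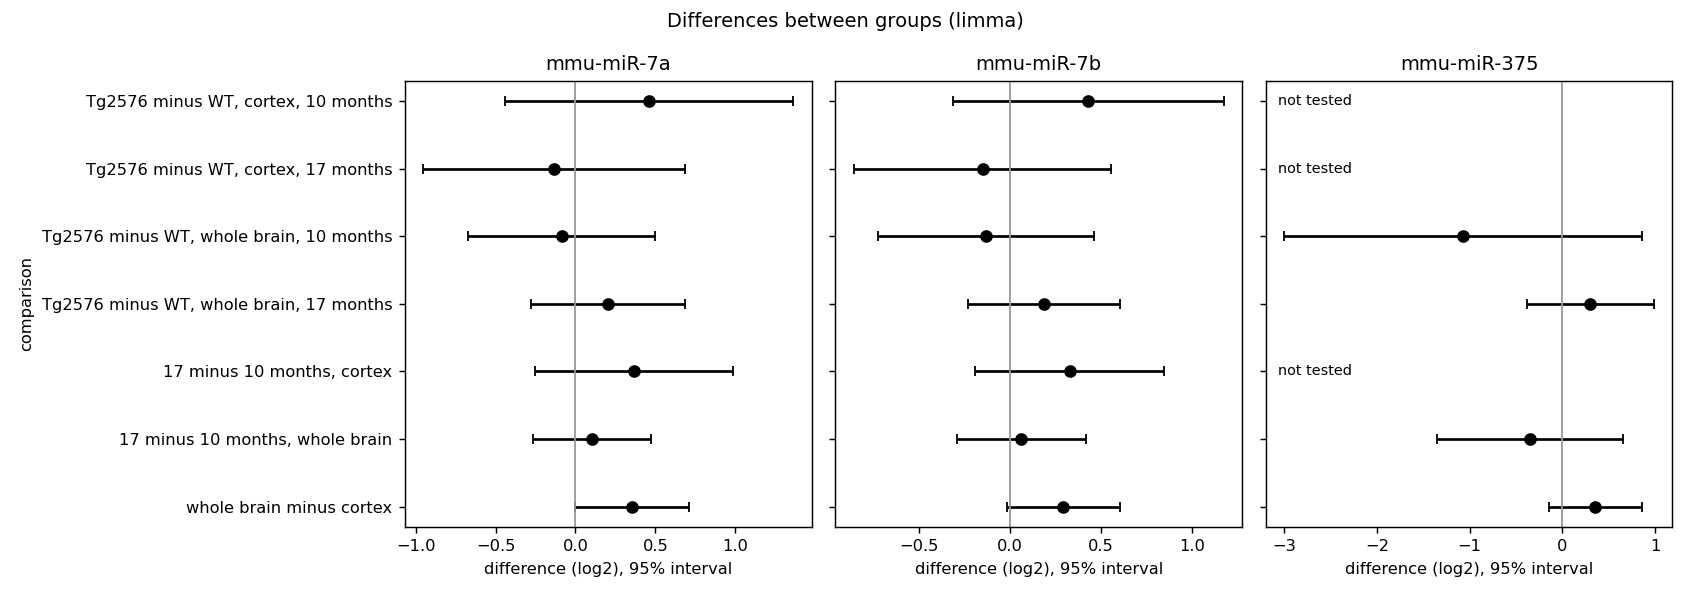
Differences of each member (log2, points) with 95% confidence intervals (lines) for genotype, age and tissue. Intervals of mmu-miR-7a and mmu-miR-7b all include 0, and the widest is that of mmu-miR-375 for genotype in whole brain at 10 months, -3.00 to 0.86.

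Pomc and Prl differed far more between arrays than mmu-miR-7a and mmu-miR-7b did. For mmu-miR-375 the floor narrows the range of levels, and its brighter probe without the floor ran from -6.80 to -2.12 in whole brain. Pomc in cortex stood at 1.96, 3.90 and 2.58 in WT and 0.09, 3.75 and 0.42 in Tg2576 at 10 months, and at 0.95, 3.07 and 1.52 in WT and 2.43, 2.27 and 5.42 in Tg2576 at 17 months (log2, scaled to the mRNA array's 75th percentile). In whole brain it stood at 1.34, 5.02 and 6.40 in WT and 1.04, 4.35 and 1.32 in Tg2576 at 10 months, and at 3.18, 3.38 and 3.27 in WT and 1.99, 1.21 and 6.41 in Tg2576 at 17 months. The genotypes overlapped in each of these comparisons, and 3 arrays of 1 group could lie about 5 log2 units apart.

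Prl in cortex was 0.96, 3.74 and -0.28 in WT and -2.42, 1.66 and -2.80 in Tg2576 at 10 months, and -1.28, 1.82 and 3.39 in WT and -2.49, 0.48 and 0.99 in Tg2576 at 17 months. In whole brain it was -0.68, 4.55 and 7.38 in WT and -3.58, 2.03 and -1.65 in Tg2576 at 10 months, and 1.83, 3.62 and 3.72 in WT and -0.58, -1.84 and 3.45 in Tg2576 at 17 months. The mean of Prl was lower in Tg2576 in each of the 4 comparisons, with log2 differences of -2.66, -1.65, -4.82 and -2.71 in the order given, and none passed limma's test (adjusted p = 0.59, 0.70, 0.47 and 0.44). Pomc differed by -1.40, 1.53, -2.02 and -0.07 (adjusted p = 0.67, 0.63, 0.59 and 0.98). On the mRNA arrays 0% of the 39628, 38889, 38108 and 36978 probes tested were called between genotypes, with 3942, 3625, 4328 and 4803 at an unadjusted p under 0.05. With age Pomc changed by 0.49 in cortex and -0.01 in whole brain and Prl by 0.34 and 0.36, and between tissues they differed by 0.88 and 1.21, none past the test (lowest adjusted p = 0.35). In RNA of a whole tissue, fewer cells of a type and less RNA per cell cannot be told apart.

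The relation of the members to these hormone genes was tested over the 12 arrays of each tissue, 12 relations in all. The miRNA and mRNA arrays were matched by label alone. mmu-miR-375 in whole brain had r = 0.70 with Pomc (permutation p = 0.00063, adjusted 0.00756) and Spearman's rho = 0.76 (permutation p = 0.00655, adjusted 0.0393). With Prl it had r = 0.66 (permutation p = 0.00348, adjusted 0.0209) and rho = 0.76 (permutation p = 0.00578, adjusted 0.0393). Both permutation tests were two-sided, and 8 of the 12 arrays shared the floor value of mmu-miR-375. Without the 2 arrays farthest from the median of the x axis r was 0.64 for Pomc and 0.45 for Prl. Without the third WT array of whole brain at 10 months alone it was 0.76 for Pomc and 0.45 for Prl (permutation p = 0.137 for Prl), so for these floored levels the relation with Prl no longer passed, over 11 arrays of which 8 were at the floor. After subtraction of each group's mean r was 0.66 and 0.70, and after subtraction of each slide's mean 0.73 and 0.72.

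With the brighter probe alone and no floor, a choice made after the values were seen, mmu-miR-375 in whole brain followed both hormone genes at r = 0.87 for Pomc and r = 0.90 for Prl, and at 0.90 for both over the 11 arrays without the highest. In cortex the same probe had r = 0.52 with Pomc and 0.75 with Prl, and the floored levels 0.28 and 0.19 with 11 of 12 arrays at the floor. The third WT array of whole brain at 10 months was the highest for mmu-miR-375 and for Prl (7.38), with Pomc at 6.40. The third Tg2576 array of whole brain at 17 months had the next mmu-miR-375 level, -4.66, with Pomc at 6.41 and Prl at 3.45. The first Tg2576 array of whole brain at 10 months had the lowest level of the brighter probe, of Pomc and of Prl among the whole-brain arrays.

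Other pituitary genes were high on the same arrays. Gh, the growth hormone gene of somatotroph cells, stood at 2.59 on the third WT array of whole brain at 10 months and at 0.54 on the third Tg2576 array at 17 months, its highest 2 values. Tshb, the thyrotropin subunit of thyrotroph cells, was at -2.13 and -5.01 there, again its highest, and above background on only 3 of 24 arrays. Among the pituitary genes of the list, Pomc, Prl and Lhb were above background on all 24 arrays, Gh on 21, Cga on 17, Ghrhr on 13, Pitx1 on 9, Tshb on 3, Fshb on 2, Pou1f1 and Gnrhr on 1, and Tbx19 on 0. The mean level of 12 of these genes ran from -5.13 to -1.26 in whole brain and from -5.42 to -3.21 in cortex. Described after the values were seen, this mean had r = 0.79 with mmu-miR-375 in whole brain and 0.30 in cortex. The part of pituitary RNA in these levels was not tested.

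**Figure D3:**
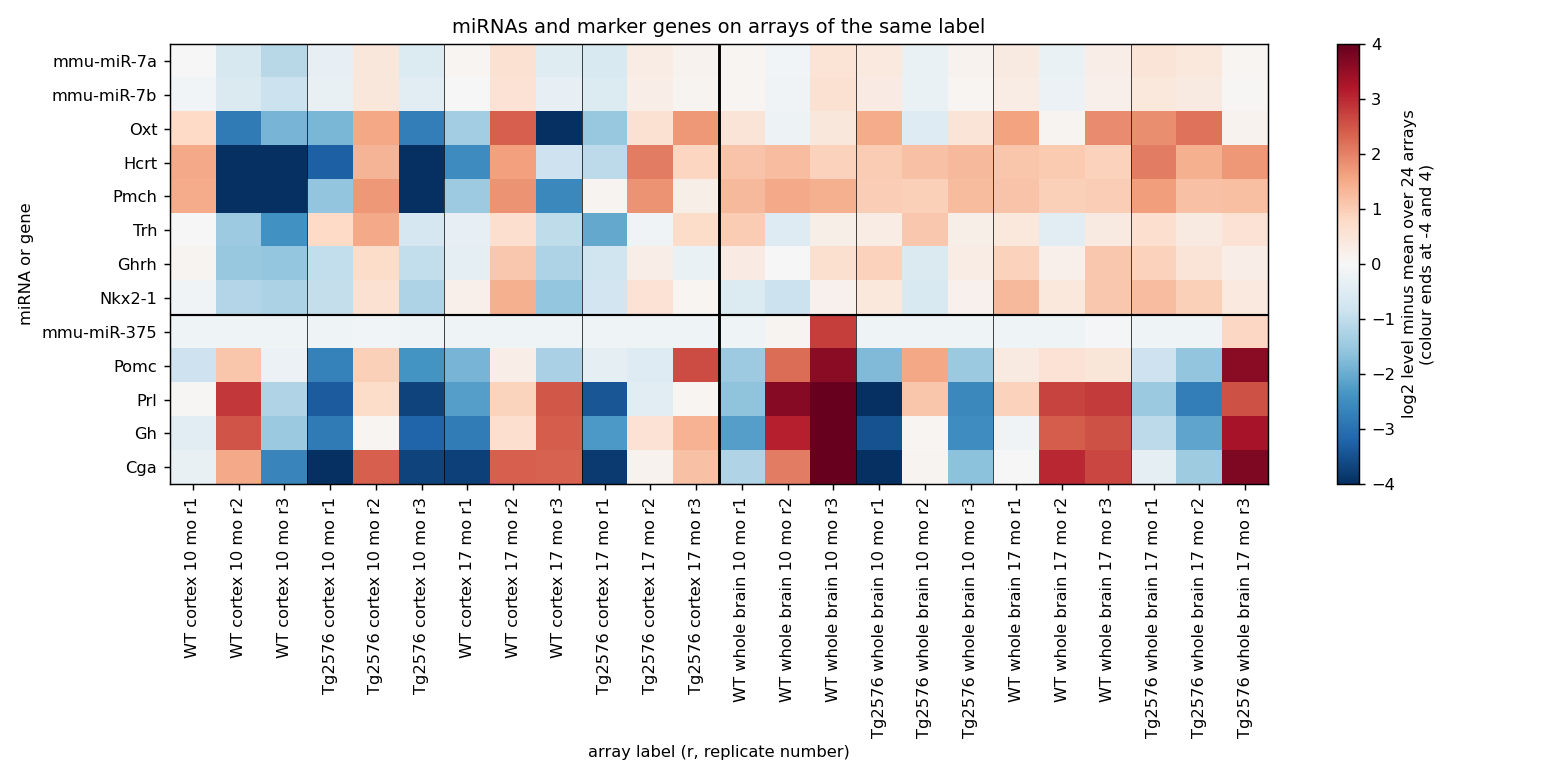
Levels of the 3 members beside Pomc, Prl and other marker genes on each of the 24 arrays (columns, by group), drawn as colour after subtraction of each row's mean (log2). The columns with high mmu-miR-375 are also high for Pomc and Prl, and those with high mmu-miR-7a and mmu-miR-7b are high for the hypothalamic peptide genes.

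For mmu-miR-7a and mmu-miR-7b no relation with Pomc or Prl passed. Their 8 correlations with these genes were between -0.21 and 0.27 (lowest adjusted permutation p = 0.71 for r). The 4 values in whole brain depended on single arrays. Without the third WT array at 10 months they were -0.55 and -0.57 with Pomc and -0.59 and -0.61 with Prl, for mmu-miR-7a and mmu-miR-7b in turn, and without the 2 arrays farthest from the median of the x axis -0.64, -0.67, -0.54 and -0.55. Both miRNAs moved with genes of the hypothalamus. After subtraction of the tissue mean, 10 of 10 measured hypothalamic genes of the list correlated with mmu-miR-7a above 0.5 over the 24 arrays (median 0.72, 0.60 to 0.91), where 4.19% of all 15764 genes did and the median was 0.01. For mmu-miR-7b the 10 genes had a median of 0.71 beside 3.93% of all genes above 0.5. The list itself was drawn up with earlier results of these data known, and the arrays share labels and scaling.

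The arrays show this gene by gene. Hcrt, the orexin precursor of the lateral hypothalamus, stood in cortex at 3.34, -3.02 and -3.15 in WT and -1.44, 3.19 and -3.20 in Tg2576 at 10 months, and at -0.71, 3.45 and 1.002 in WT and 0.76, 3.87 and 2.67 in Tg2576 at 17 months. In whole brain it varied little, 2.74 to 3.87. Pmch, the precursor of melanin-concentrating hormone, was as uneven in cortex, from -3.65 to 3.75, and as even in whole brain, 2.91 to 3.61. The cortex arrays with Hcrt above 2 were the first WT and the second Tg2576 array at 10 months and the second WT and the second and the third Tg2576 arrays at 17 months. They were 5 arrays, with mmu-miR-7a at 0.46, 0.94, 1.10, 0.77 and 0.63, while the other 7 cortex arrays lay between -0.61 and 0.57.

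Ghrh, the releasing hormone for growth hormone from the arcuate nucleus, had the highest r of the list with mmu-miR-7a in cortex (0.94) and 0.82 in whole brain. It ran in cortex from -3.16 on the third WT array at 10 months, where mmu-miR-7a was also lowest, to -0.55 on the second WT array at 17 months, where mmu-miR-7a was highest. Nkx2-1, a transcription factor of the ventral forebrain, had r = 0.92 and 0.64, and Oxt, the oxytocin gene, 0.78 and 0.78. Kiss1, the kisspeptin gene, and Agrp, an arcuate feeding peptide, had higher r in whole brain (0.93 and 0.81) than in cortex (0.62 and 0.66). Hcrt and Pmch had 0.16 and 0.35 in whole brain. Sim1 and Otp were not above background on any array.

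The mean level of the 10 hypothalamic genes, a measure added after the values were seen, fell into separate clusters in cortex, 7 arrays from -2.46 to -1.08 and 5 from 0.18 to 1.25. Over the 7 lower arrays r with mmu-miR-7a was 0.54 and rho 0.46, and the upper 5 were too few. In whole brain, where the mean ran from -0.25 to 0.93, r was 0.93 and rho 0.88 with mmu-miR-7a, and 0.87 and 0.87 with mmu-miR-7b. Over the 9 whole-brain arrays above the widest gap in the list level, r with mmu-miR-7a was 0.76. For mmu-miR-375 the same mean gave 0.04 in whole brain. Cortical neuron genes had a median r of -0.52 with mmu-miR-7a over 6 genes after subtraction of the tissue mean, from -0.65 to -0.04. Neurod6 stood at -0.64, Tbr1 at -0.53, Fezf2 at -0.51, Rorb at -0.20 and Cux2 at -0.04. Within whole brain alone the 6 values were weak, from -0.24 to 0.12. The part of hypothalamic tissue in the mmu-miR-7a and mmu-miR-7b levels was not tested. Arrays with a higher 75th percentile had lower mmu-miR-7a in cortex (r = -0.54) but not in whole brain (r = -0.07), and this too was not tested further.

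**Figure D4:**
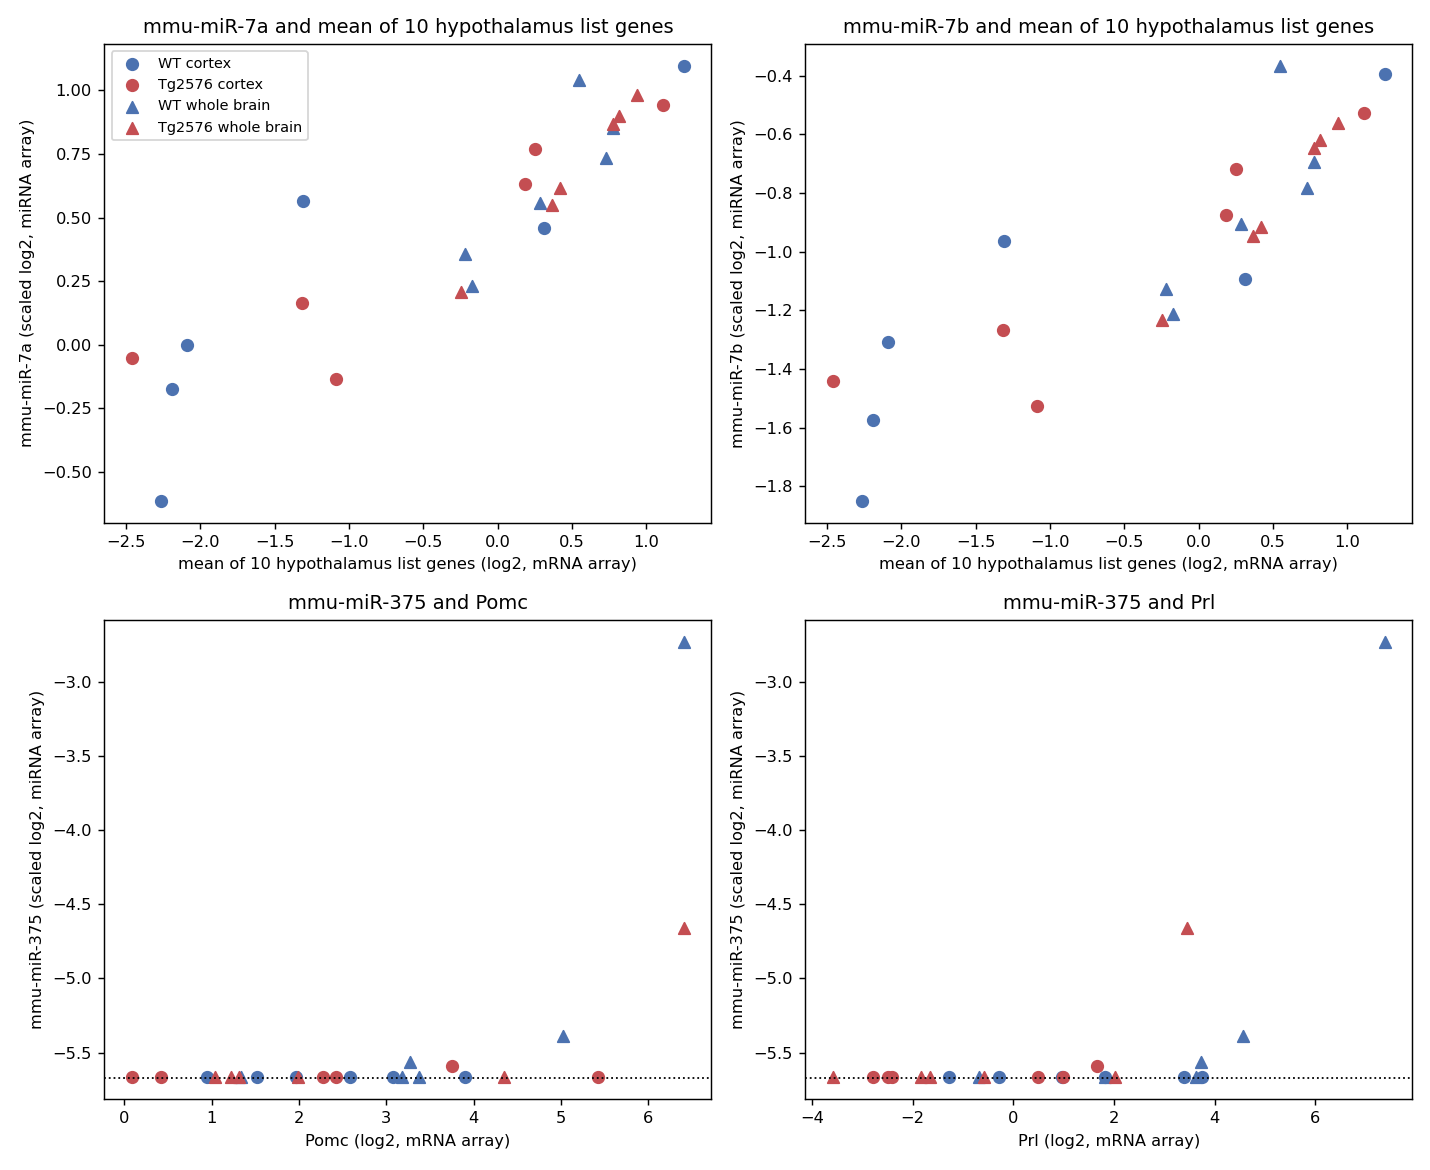
Levels of mmu-miR-7a and mmu-miR-7b (log2) against the mean of 10 hypothalamic genes, and of mmu-miR-375 against Pomc and Prl, on the mRNA array with the same label. Each point is 1 array (circles cortex, triangles whole brain, blue WT, red Tg2576). mmu-miR-375 at the floor of -5.67 covers a wide range of Pomc and Prl, and the third WT whole-brain array at 10 months stands alone at -2.73.

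The genes most like mmu-miR-7a over the 24 arrays, after subtraction of the tissue mean, were Brs3 (r = 0.95), an orphan receptor of the bombesin family, Sytl4 (0.94), a granule protein of regulated secretion, and Zcchc12 (0.94). For mmu-miR-7b they were Sytl4 (0.93), Brs3 (0.93) and Asb4 (0.91), all of 15764 genes compared. On the third WT cortex array at 10 months Brs3 was at -6.62 and on the second WT cortex array at 17 months at -3.28, the ends of its range and of that of mmu-miR-7a. Among 292 miRNAs the closest to both were mmu-miR-296-5p (0.84 with mmu-miR-7a, 0.80 with mmu-miR-7b), mmu-miR-672 (0.80 and 0.76) and mmu-miR-345-5p (0.79 and 0.75). For mmu-miR-375 the closest genes were Fpr1 (0.79), Gimap3 (0.74) and Isg20 (0.72) and the closest miRNAs mmu-miR-15b (0.55), mmu-miR-3107 (0.55) and mmu-miR-451 (0.50). These 6 values fell to 0.24, 0.31, 0.42, -0.02, 0.06 and 0.08 without the third WT array of whole brain at 10 months.

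Genes of regulated secretion, the granule cargo and processing enzymes of neuroendocrine cells, were not as a group tied to the members. The median r with mmu-miR-7a over 15 genes was 0.08. Isl1, a transcription factor of endocrine and hypothalamic neurons, had 0.83 and Scg2, a granin, 0.67. On the mRNA arrays age and tissue ran partly along the slides. All cortex arrays at 10 months shared a slide, most at 17 months lay on another, and all whole-brain arrays at 17 months shared a slide. The age and tissue differences of genes given below can therefore not be fully told apart from slide differences. With age 5 of 15 rose in cortex, where 13.7% of all probes rose and 13% fell. Chga, the founding granin, rose by 0.48 (adjusted p = 0.000726 by limma), Pcsk1n by 0.59 and Ptprn by 0.62, while Pcsk1, a prohormone convertase, fell by 0.35. In whole brain 6 rose and 2 fell beside a background of 17.4% and 21%. Between tissues 3 were higher in whole brain, Scg2, Pcsk1 and Pcsk1n, and 3 lower, beside 17.6% and 19.9%.

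Reported targets of miR-7 did not run against it. Over 12 such genes the median r was -0.06 with mmu-miR-7a and -0.08 with mmu-miR-7b. Pak1, a kinase of the cytoskeleton, fell by 0.32 with age in whole brain (adjusted p = 0.00055 by limma). Irs2, an adaptor of the insulin receptor, rose by 0.56 in cortex and 0.85 in whole brain, Rela, a subunit of NF-kappaB, by 0.45 and 0.53, and Pik3cd, a PI3-kinase subunit, by 0.44 and 0.40. Igf1r rose by 0.26 in whole brain. In all, 3 of 12 rose with age in cortex and 0 fell, beside 13.7% and 13% of all probes, and 4 rose and 2 fell in whole brain, beside 17.4% and 21%. Reported targets of miR-375 had a median r of 0.09 with it over 8 genes. Among them Mtpn, which takes part in granule release in islet cells, fell by 0.31 with age in cortex and was 0.63 lower in whole brain than in cortex (log2), and Cav1 fell by 0.45 with age in cortex. Rasd1 rose by 0.55 with age in whole brain.

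Between tissues, Hcrt was 2.51 higher in whole brain (adjusted p = 0.0156 by limma), Pmch 2.43 and Ghrh 0.92, which made 3 of 10 hypothalamic genes beside 17.6% of all probes. Pitx1, a pituitary transcription factor, was 1.40 higher and Ghrhr 0.69 lower on the log2 scale. Nkx2-1 rose by 1.10 with age in whole brain. Of the genes around the miRNA loci, Hnrnpk, which holds Mir7-1, was lower in whole brain by a log2 difference of -0.13, and Cryba2 and Cfap65, the neighbours of Mir375, were higher by 0.32 and 0.37. No gene of any list was called between genotypes. With the slide as a block in the fit, 3, 12 and 0 of the list genes were called for age in cortex, age in whole brain and tissue, against 14, 22 and 26 without it. Without the block 10751 of 40254, 14769 of 38478 and 15198 of 40483 probes were called. The share of all probes called with the block is not given here, so the lower counts say nothing particular to these genes. The age and tissue calls of list genes given in this report are those without the block.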

How the data were processed

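Total RNA was extracted with the mirVana PARIS kit, labelled with Cy3 and hybridised to Agilent 1-colour miRNA and mRNA arrays. The authors' deposited scanner files hold intensity values, background-subtracted by Agilent Feature Extraction 10.7.3.1 per the submitters' processing notes. The deposited log2 tables were log2 of each miRNA's total signal or each mRNA probe's intensity less a constant for each array, whose basis was not checked (within 0.01 for 100% of miRNA and at least 99.8% of mRNA values), with column medians of -11.98 to -9.58 and -3.38 to -3.22, and served as an alternative. Flagged outlier spots and controls were left out, and 14 to 20 spots per member probe were averaged. Each miRNA array was divided by the 75th percentile of 402 probes detected on each array, the floor was set, and log2 was taken. Each mRNA array was divided by the same percentile of its 55681 probes, of which 26056 had a symbol through RefSeq transcripts (19752 symbols).

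Tests used limma 3.58.1 in R 4.3.3 with Benjamini-Hochberg adjustment over all features tested, after testing on simulated data. A feature was tested where at least 2 arrays of a group in the comparison had it well above background. A gene was read by its probe of highest mean level. Correlations over arrays used 1e+05 permutations. The members and lists were chosen with earlier results of these data known. Named were the members, the list genes and, per member, the 3 miRNAs and 3 genes most like it. Oip5os1, a regulator of miR-7, was not analysed here. Values of some list genes are not reported here. No 2 arrays were duplicates (highest correlation 0.999 for miRNA, 0.993 for mRNA). The number of arrays limits the precision.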

Additional observations from a re-analysis of the deposited data

How the results depend on the processing

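With 3 arrays a group and mmu-miR-375 near the floor, small differences were not detectable. No member was called under any alternative or with any array left out, except mmu-miR-7a in whole brain against cortex (0.34, adjusted p = 0.0479, 1 member called) with normexp on median spot signals, where mmu-miR-375 turned to -0.042 and the tissue-by-age value of Prl to -0.024. The causes were not tested. Replicate numbers showed no steady pairing of WT with Tg2576 arrays of the same tissue and age. Deviations of same-numbered miRNA arrays correlated between -0.39 and 0.40, over 0.1 in 1 of 12 pairs. Those of mRNA arrays correlated between -0.13 and 0.32, over 0.1 in 2 of 12. Pairing by number between tissues or between ages was not examined. The replicate block left mmu-miR-7a at 0.46 in cortex at 10 months, moved the tissue count of list genes to 27 and changed no member's call. Values that changed sign are given as mmu-miR-7a and then mmu-miR-7b. Scaling over all probes gave 0.36 and 0.34 for genotype in cortex at 17 months and -0.065 and -0.10 for age in whole brain. The slide as a block gave 0.42 and 0.27 for that genotype difference (3 Tg2576 arrays against 1 WT array on the shared slide). It gave 0.22 and 0.15 in whole brain at 10 months (1 against 3). For genotype by age it gave 0.22 and 0.0098 (cortex) and -0.20 and -0.12 (whole brain). For Prl it gave -1.74 and -2.15 for age in cortex and whole brain, -3.39 for tissue, -1.08 for genotype by age in cortex and -0.41 for age by tissue. It called 3, 12 and 0 list genes for age in cortex, age in whole brain and tissue. The slide block could not be had on the mRNA arrays for genotype in cortex at 10 months and whole brain at 17 months, each on 1 slide. For the slide block, the replicate block and the fits with 1 array left out, the share of all probes called is not given here. Those counts of list genes therefore have no background beside them. The methods' test called 7 list genes in cortex at 10 months and 2 in whole brain at 17 months before adjustment. By the same criterion 324 of 39628 and 353 of 36978 mRNA probes passed in these comparisons, and 0 remained after Benjamini-Hochberg adjustment. For mmu-miR-375 the genotype difference in whole brain at 17 months was -0.43 with the authors' values, -0.31 with total signals, -0.18 with a floor 4 times lower and -0.18 with the brighter probe alone (added after seeing the data). Its age difference in whole brain was 0.67 and 0.049 with the first 2 of these, and the age-by-tissue value 3.04, 0.77, 0.40 and 0.21. The span of its group means ran from 0.54 (normexp) to 5.10 (the authors' values). With 1 array left out, list genes called ran from 0 to 2 for genotype in cortex at 10 months and for genotype by age in whole brain, and were 2 without the third Tg2576 cortex array and without the first Tg2576 whole-brain array at 10 months. Ranges that crossed 0 when each array was left out were, for mmu-miR-7a and mmu-miR-7b, -0.41 to 0.15 and -0.36 to 0.10 (genotype, cortex, 17 months), -0.24 to 0.11 and -0.30 to 0.083 (genotype, whole brain, 10 months) and, for mmu-miR-7b, -0.020 to 0.17 (age, whole brain). For mmu-miR-375 they were -0.035 to 0.47 (genotype, whole brain, 17 months), -0.62 to 0.12 (age, whole brain) and -0.61 to 0.13 (age by tissue). For Pomc they were -1.67 to 0.92 (genotype, whole brain, 17 months), -0.019 to 1.08 and -0.81 to 0.53 (age, cortex and whole brain) and -1.30 to 0.039 (age by tissue). For Prl they were -0.18 to 1.05 and -0.75 to 1.27 (age, cortex and whole brain), -0.29 to 2.43 (genotype by age, cortex) and -1.09 to 0.93 (age by tissue).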
